A study of Mus musculus with 6 samples.

Results

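Secretoglobin genes were followed in whole prostates at 4 weeks of age, taken from 3 AR3 transgenic mice and from 3 littermates of wild-type genotype. Each prostate had an array of its own. AR3 is a splice variant of the androgen receptor that lacks the ligand-binding domain. The labels give the genotype, age and tissue, and do not name the promoter that drives the transgene, the line or the lobe. The 6 genes Scgb2b27, Scgb2b24, Scgb1b27, Scgb1a1, Scgb3a1 and Scgb3a2 were selected on their measured values, that is with the transgenic against wild-type contrast in view, out of 19938 genes that had a probe set with no other gene symbol. Where a gene had several, the brightest one, by its mean intensity on the 6 arrays, was used. The selection used the contrast itself, so the values of these 6 genes are a description and carry no test. Scgb2b27, Scgb2b24 and Scgb1b27 were lower in transgenic prostates, while probe sets shared by other copies of the same chromosome 7 cluster rose, one of them further than any other probe set.

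Secretoglobins are small secreted proteins, mostly alpha-helical, that pair into dimers joined by disulfide bonds and hold hydrophobic ligands such as steroids. In the mouse a large branch of the family encodes the androgen-binding proteins of saliva and tears. There a Scgb1b gene gives the alpha subunit and a Scgb2b gene the beta or gamma subunit, and the genes lie as many alpha and beta-gamma neighbours in a cluster on chromosome 7. Scgb1a1, also called uteroglobin or club cell secretory protein, and Scgb3a1 and Scgb3a2 are known chiefly from the airway epithelium.

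The RefSeq promoter table (build GRCm38.p6, 250 bases before to 50 after each start site) held 32 secretoglobin promoters. The 4 below are shown because they belong to the 3 genes that were lower in transgenic prostates and to Scgb2b20, one of the genes behind the probe set that rose most. Each runs 5′ to 3′ along its gene, and capitals mark letters read on either strand. The letters AGAACA are a hexamer of steroid receptor sites. The letters TATAAA are those of a TATA box, which is read along the gene.
Scgb2b27 (chr7:34013893-34014192, minus strand): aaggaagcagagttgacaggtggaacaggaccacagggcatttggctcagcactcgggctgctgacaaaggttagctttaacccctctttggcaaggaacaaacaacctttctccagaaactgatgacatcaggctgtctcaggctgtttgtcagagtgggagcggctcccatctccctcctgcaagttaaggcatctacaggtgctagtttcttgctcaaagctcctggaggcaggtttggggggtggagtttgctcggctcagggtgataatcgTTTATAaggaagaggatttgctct
Scgb2b24 (chr7:33739246-33739545, minus strand): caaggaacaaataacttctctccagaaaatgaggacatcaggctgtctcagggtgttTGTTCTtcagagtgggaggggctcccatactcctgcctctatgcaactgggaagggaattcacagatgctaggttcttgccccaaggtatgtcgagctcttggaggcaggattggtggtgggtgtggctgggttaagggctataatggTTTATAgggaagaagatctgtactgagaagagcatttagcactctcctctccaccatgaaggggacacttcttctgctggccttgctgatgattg
Scgb1b27 (chr7:34021231-34021530, plus strand): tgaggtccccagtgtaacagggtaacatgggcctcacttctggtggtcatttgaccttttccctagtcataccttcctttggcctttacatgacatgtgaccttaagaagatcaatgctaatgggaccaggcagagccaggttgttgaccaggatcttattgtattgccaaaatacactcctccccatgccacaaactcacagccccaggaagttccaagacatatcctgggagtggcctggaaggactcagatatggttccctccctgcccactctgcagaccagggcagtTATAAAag
Scgb2b20 (chr7:33366270-33366569, minus strand): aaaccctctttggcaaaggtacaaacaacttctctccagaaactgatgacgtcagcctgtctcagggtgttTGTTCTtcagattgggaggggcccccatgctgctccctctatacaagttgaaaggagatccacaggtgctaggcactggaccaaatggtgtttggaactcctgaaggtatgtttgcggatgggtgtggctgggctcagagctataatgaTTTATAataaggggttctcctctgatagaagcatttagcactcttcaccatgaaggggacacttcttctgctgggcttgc

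Along these windows the beta-gamma promoters resembled one another. The best local alignment of Scgb2b20 was identical at 231 of 291 aligned positions (79.4%) with Scgb2b24 and at 178 of 245 (72.7%) with Scgb2b27. Scgb2b7, Scgb2b11 and Scgb2b20, whose transcripts share a probe set, were 97.0% to 98.7% identical. The hexamer AGAACA was found on the strand opposite to the printed one (read there as TGTTCT) in Scgb2b24 (193 bases before the start site), Scgb2b7 (182 before), Scgb2b11 and Scgb2b20 (179 before each), and was not found in the Scgb2b27 or Scgb1b27 window. It occurred in 19 of the 32 secretoglobin promoters and in 19.0% of all 32851 promoters, overlapping no other motif searched in the 4 printed windows. On the strand opposite to the gene (printed as TTTATA), the letters TATAAA lay 45 bases before the start site of Scgb2b24, 30 before that of Scgb2b20 and 27 after the annotated start of Scgb2b27. Along the gene they lay 43 bases after the annotated start of Scgb1b27. Read on either strand, which makes no count of TATA boxes, they stood in 22 of the 32 and in 13.6% of all. Some of the 32 are copies of one another, so counts among them repeat sequences. The windows of Scgb2b10, Scgb2b15 and Scgb2b17, for example, were 100% identical. The palindrome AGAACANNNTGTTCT (0.00913% of all promoters) and the forkhead letters TGTTTAC (3.65%) were in 0 of the 32. CAAGTG, the core bound by NK2 homeobox factors, was in 8 of the 32, among them Scgb3a1, and in 13.6% of all. A match of letters is a description of the window and does not show binding.

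The arrays were comparable in level, with median intensities of 94.5 to 110.8. As a scale of background, the 95th percentile of 1035 olfactory receptor probe sets was taken on each array, and it lay between 66.9 and 91.9. Of 25 measured genes listed as prostate secretory products, 24 were above that scale on all transgenic arrays and 21 on all wild-type arrays. Seminal vesicle genes differed between libraries of the same genotype. Their mean log2 level was 7.51, 6.96 and 8.26 in transgenic replicates 1 to 3 and 8.17, 6.69 and 6.80 in wild-type replicates 1 to 3. Transgenic replicate 1 also carried such signal, with Svs5 at 344.8 and Svs4 at 249.2, against 15.5 and 60.3 in transgenic replicate 2. Values given below without 1 library keep the other libraries that carry this signal. Fewer cells of a type and less RNA per cell cannot be told apart in whole tissue.

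Among the 6 genes, the beta-gamma subunit gene Scgb2b27 differed most. It had intensities of 39.8, 27.2 and 34.5 in transgenic prostates, against 2029, 2634 and 2301 in wild-type prostates. Every transgenic value lay below the background scale and every wild-type value far above it, so the level on this probe set was at least 28.4-fold lower in transgenic prostates. The means were 33.8 ± 6.34 in transgenic and 2321 ± 303 in wild-type prostates (SD, n = 3 each). On the log2(intensity + 16) scale the difference was −5.55 ± 0.13 (SE), the largest fall among all 28944 probe sets tested, with Csta1 next at −2.65. It was −5.57 without transgenic replicate 3 and −5.64 without wild-type replicate 1, the libraries with the highest seminal vesicle signal. Another probe set, shared with Scgb2b26 and described below, was below the background scale in both genotypes.

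The other androgen-binding protein genes with a lower signal differed less. Scgb2b24, a beta-gamma subunit gene, had intensities of 43.7, 39.3 and 42.6 in transgenic prostates, against 83.5, 125.4 and 125.2 in wild-type prostates. The transgenic values were all at background, and each wild-type value stood above the scale of its own array, which bounds the difference at only 1.35-fold or more. Its log2 difference was −1.12 ± 0.14 (SE). Scgb1b27, the alpha subunit gene next to Scgb2b27, had intensities of 106.9, 121.0 and 103.4 in transgenic prostates, against 190.8, 243.6 and 306.1 in wild-type prostates. All 6 values lay above the background scale and the genotypes did not overlap. Its log2 difference was −1.04 ± 0.16 (SE), with means of 110.4 ± 9.32 in transgenic and 246.8 ± 57.7 in wild-type prostates (SD, n = 3 each). A second, dimmer probe set of Scgb1b27 was above background on 0 transgenic arrays and 1 wild-type array. It averaged 14.0 ± 3.26 in transgenic and 75.1 ± 23.9 in wild-type prostates (SD, n = 3 each), and its log2 difference of −1.58 was −2.32 and −0.82 with constants of 1 and 64 in place of 16.

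The airway secretoglobins were at or near background in both genotypes. Scgb1a1 had 29.2, 25.9 and 21.0 in transgenic prostates, against 33.2, 29.3 and 41.7 in wild-type prostates, all below the background scale. The genotypes did not overlap, and the log2 difference was −0.29 ± 0.12 (SE). Scgb3a1 had 88.3, 62.3 and 65.8 in transgenic prostates, against 63.9, 85.5 and 79.2 in wild-type prostates. The genotypes overlapped, 1 array of each was above background, and the log2 difference was −0.07 ± 0.14 (SE). Scgb3a2 had 39.6, 33.3 and 32.7 in transgenic prostates, against 35.6, 35.4 and 25.3 in wild-type prostates. These values overlapped below background, with a log2 difference of 0.09 ± 0.11 (SE).

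In count, 3 of the 6 genes (Scgb2b27, Scgb2b24 and Scgb1b27) were lower and past an adjusted p of 0.05, 0 were higher, and 3 were not past it. Over all probe sets 1.47% were past it, 1.05% higher and 0.415% lower. The genotypes did not overlap for 4 of the 6, against 18.8% of all probe sets, and the median log2 difference of the 6 was −0.66, against 0.01 for all genes. These counts follow from the selection and nothing is read from them. Scgb1b27 was no longer past the threshold without wild-type replicate 2 (log2 difference −1.03) or without transgenic replicate 1 (−1.02), 2 (−1.09) or 3 (−0.995), and Scgb2b24 without transgenic replicate 2 (−1.09).

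**Figure D1:**
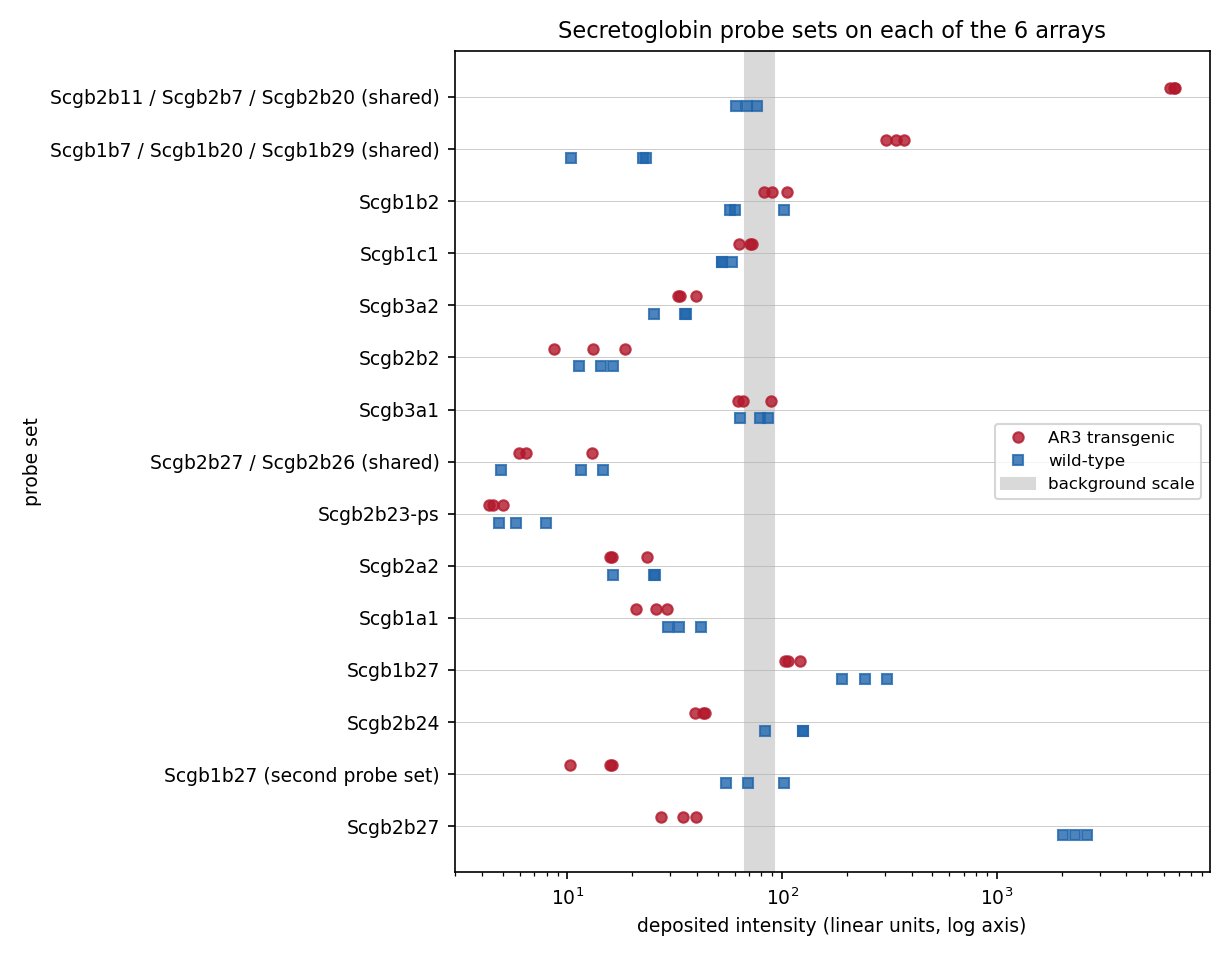
Deposited intensity (linear units, log axis) of each secretoglobin probe set on each of the 6 arrays, with circles for the 3 AR3 transgenic and squares for the 3 wild-type prostates, and the grey band for the background scale of 66.9 to 91.9. Scgb2b27 is below the band in transgenic and far above it in wild-type prostates, while the shared probe set of Scgb2b11, Scgb2b7 and Scgb2b20 is far above the band in transgenic prostates and in or just below the band in wild-type prostates.

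The rest of the family was not among the selected genes and was tested with limma. The family itself was chosen with earlier results of these data known. The p-values below are therefore not independent of that choice. They were adjusted by the Benjamini-Hochberg method across the 28944 probe sets. The array carried 15 secretoglobin probe sets, 12 with 1 gene symbol and 3 that name several genes. Together they name 18 of the 53 secretoglobin genes in the RefSeq table, 14 of them on chromosome 7. A shared probe set cannot be assigned to a single one of its genes, and near-identical copies may add to any of these signals.

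A probe set shared by the beta-gamma subunit genes Scgb2b11, Scgb2b7 and Scgb2b20 was high in transgenic prostates alone. It had intensities of 6650, 6371 and 6769 in transgenic prostates, against 60.7, 76.2 and 68.9 in wild-type prostates. The wild-type values were at background, so the level was at least 84.5-fold higher in transgenic prostates. The means were 6597 ± 204 in transgenic and 68.6 ± 7.76 in wild-type prostates (SD, n = 3 each). Its log2 difference of 6.29 ± 0.09 (SE) was the largest rise of all 28944 probe sets and also the smallest p (adjusted p = 7.7e-08, limma). The next rises were 4.95 for the kallikrein gene Klk1b24 and 4.84 for the prohormone convertase gene Pcsk1.

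A probe set shared by the alpha subunit genes Scgb1b7, Scgb1b20 and Scgb1b29 rose as well. It had intensities of 369.4, 304.5 and 337.4 in transgenic prostates, against 10.4, 23.3 and 22.4 in wild-type prostates. The genotypes were separated by the whole background scale, which makes the level at least 4.31-fold higher in transgenic prostates. Its log2 difference was 3.37 ± 0.16 (SE), with an adjusted p of 3.7e-05 (limma). Both shared probe sets passed the threshold in all 14 alternative settings, with log2 differences of 5.65 to 6.57 for the beta-gamma set and of 2.28 to 4.18 for the alpha set. Without transgenic replicate 3 and without wild-type replicate 1, the libraries with the highest seminal vesicle signal, they were 6.27 and 6.22 for the beta-gamma set and 3.36 and 3.18 for the alpha set.

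The remaining secretoglobin probe sets did not pass the threshold. Another shared probe set, of Scgb2b27 and Scgb2b26, had intensities of 5.96, 13.1 and 6.44 in transgenic prostates, against 4.92, 11.6 and 14.7 in wild-type prostates. All lay below the background scale, and the log2 difference of −0.10 ± 0.17 (SE, adjusted p = 0.859, limma) was unlike that of Scgb2b27's own probe set. Of 5 further genes with their own probe set 0 passed: Scgb2a2 (−0.15), Scgb2b2 (−0.04), the pseudogene Scgb2b23-ps (−0.10), Scgb1b2 (0.32) and Scgb1c1 (0.27), with adjusted p-values of 0.248 to 0.945. For 1 of the 5, Scgb1c1, the genotypes did not overlap, against 18.8% of all probe sets. It averaged 68.7 ± 5.34 in transgenic and 54.4 ± 3.30 in wild-type prostates (SD, n = 3 each), below the background scale of each array.

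**Figure D2:**
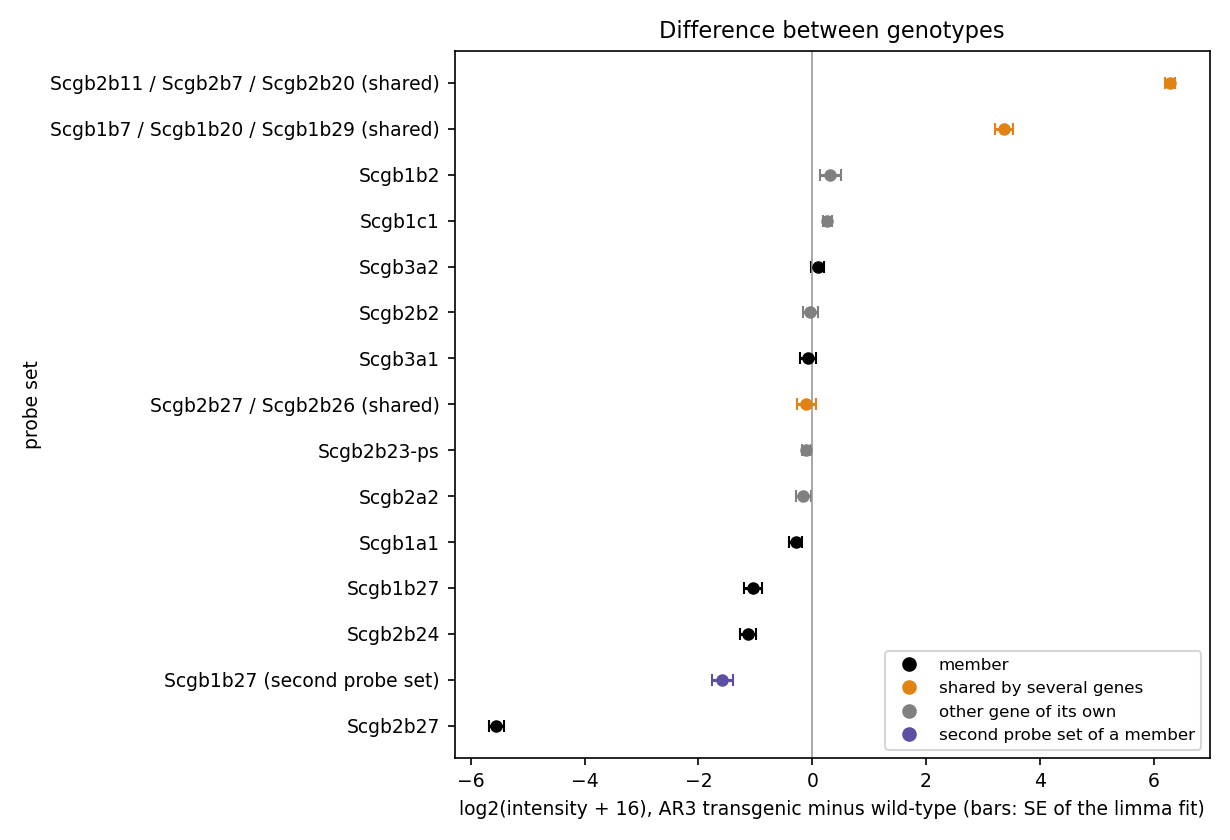
Log2 difference of each secretoglobin probe set, AR3 transgenic minus wild-type on the log2(intensity + 16) scale, with bars for the SE of the limma fit and colours for the kind of probe set. The family runs from −5.55 for Scgb2b27 to 6.29 for the probe set of Scgb2b11, Scgb2b7 and Scgb2b20, with 2 shared probe sets high, and both probe sets of Scgb1b27 (−1.04 and −1.58) and Scgb2b24 (−1.12) also low. The others lie between −0.29 and 0.32.

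Along chromosome 7 the secretoglobin genes, without the distant Scgb1c1, form a run of 48 in the RefSeq table. Counted from its first gene, Scgb2b7 and Scgb1b7 are at places 10 and 11, Scgb2b11 at 19, Scgb1b29 at 22, and Scgb2b20 and Scgb1b20 at 36 and 37. The genes that were lower lie further along, with Scgb2b24 at 42, Scgb2b27 at 46 and Scgb1b27 at 47. The probe sets that rose therefore name neighbouring alpha and beta-gamma genes at places 10 and 11 and again at 36 and 37, and the lower genes include the neighbours at 46 and 47. Which copy gave the shared signals was not tested.

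Measured genes flanking the cluster did not pass the threshold. The nearest measured genes on its sides, Gm10640 and Wtip, had log2 differences of −0.01 ± 0.14 and −0.03 ± 0.08 (SE, adjusted p = 0.987 and 0.908, limma). Of the 10 nearest measured genes on each side, a span chosen after values were seen, 0 of 20 passed the threshold and their log2 differences ran from −0.12 to 0.39. Around Scgb1a1, the neighbours Ahnak and Asrgl1 each had 0.05, and around Scgb3a1, Flt4 had −0.06 and Cnot6 0.02. Next to Scgb3a2, the protease inhibitor gene Spink1 averaged 5288 ± 155 in transgenic and 7676 ± 534 in wild-type prostates (SD, n = 3 each) and fell by 0.53 on the log2 scale (adjusted p = 0.0196, limma). Spink1 did not pass when wild-type replicate 2 (−0.54) or transgenic replicate 1 (−0.56), 2 (−0.52) or 3 (−0.52) was left out.

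**Figure D3:**
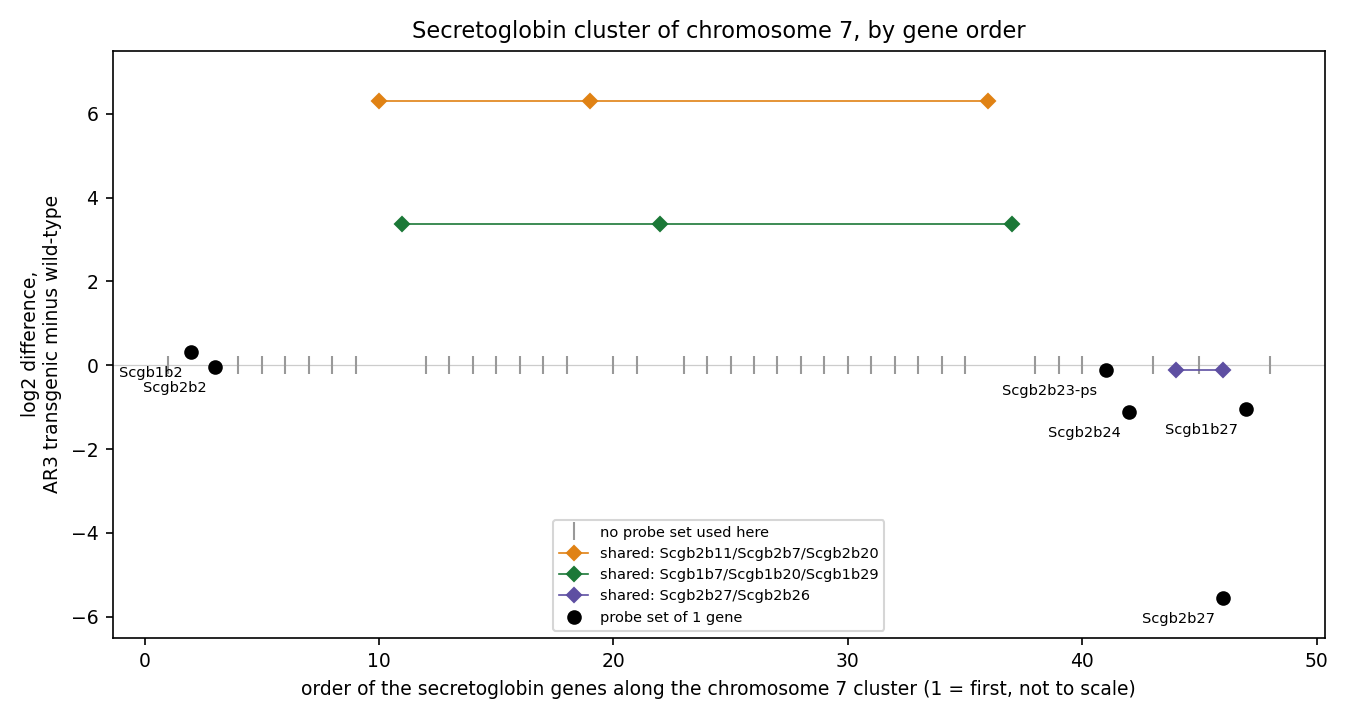
Log2 difference (AR3 transgenic minus wild-type, vertical axis) against the order of the 48 secretoglobin genes of the chromosome 7 cluster (horizontal axis, not to scale). Lines join the genes that share a probe set, black points are probe sets of 1 gene, and grey ticks are genes with no probe set used here; the 2 high shared probe sets name genes at places 10 to 37 and the 3 lower genes lie at places 42 to 47.

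Scgb2b27 was the only one of the 6 genes whose log2 values spanned more than 2 over the arrays (5.94). The 3 genes with the most similar pattern over the 6 arrays, each centred on its own mean, were Csta1, a cysteine protease inhibitor gene (root mean square difference 1.47), D030018L15Rik (1.56) and Tac1, which encodes the substance P precursor (1.64). Csta1 averaged 20.6 ± 1.70 in transgenic and 218.7 ± 60.2 in wild-type prostates, D030018L15Rik 87.6 ± 6.02 in transgenic and 557.2 ± 111 in wild-type prostates, and Tac1 17.6 ± 4.24 in transgenic and 151.8 ± 26.5 in wild-type prostates (SD, n = 3 each). Their log2 differences were −2.65, −2.45 and −2.32. They were chosen for their likeness to a gene that differs between the genotypes, so their direction follows from the choice and no p is given. Csta1 and Tac1 were at background on all transgenic arrays, at least 2.62-fold and 1.85-fold lower.

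Genes that act with secretoglobins were taken from a list of receptors, ligands and partners. Of 25 measured, 2 were higher, 1 was lower and 22 did not pass the threshold, 6 had an unadjusted p under 0.05, and the median log2 difference was 0.12 against 0.01 for all genes. For this and every later list, the shares over all probe sets were 1.05% higher and 0.415% lower past the threshold. The share of all probe sets with an unadjusted p under 0.05 is not given here. All the lists were written with earlier results of these data known. Lrp2, which encodes megalin, an endocytic receptor that takes up Scgb1a1, averaged 121.9 ± 6.01 in transgenic and 49.9 ± 5.83 in wild-type prostates (SD, n = 3 each), a rise of 1.07 ± 0.09 (SE, adjusted p = 8.7e-04, limma). Its wild-type values were below background, so the level was at least 1.56-fold higher in transgenic prostates. Pla2g4a, a cytosolic phospholipase A2 gene, rose by 0.58 (adjusted p = 0.026, limma). Ptgdr, a prostaglandin D2 receptor gene, averaged 82.0 ± 4.76 in transgenic and 260.4 ± 37.5 in wild-type prostates (SD, n = 3 each) and fell by 1.49 on the log2 scale (adjusted p = 4.4e-04, limma). The call on Pla2g4a was lost without wild-type replicate 2 (0.59) or 3 (0.56) and without transgenic replicate 2 (0.58) or 3 (0.51).

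Transcription factors known at secretoglobin promoters showed 0 calls among 29 measured genes by limma, with 5 at an unadjusted p under 0.05 and a median log2 difference of 0.06. Nkx2-1, which activates airway secretoglobin genes, averaged 81.9 ± 6.95 in transgenic and 87.3 ± 13.2 in wild-type prostates (SD, n = 3 each), a log2 difference of −0.07 ± 0.11 (SE, adjusted p = 0.851, limma). The epithelial factor gene Spdef had the smallest p of the list, at −0.33 ± 0.09 (SE, adjusted p = 0.18, limma), and passed with array weights (adjusted p = 0.0306). The androgen receptor gene itself was not analysed here, since none of the probe sets used carries its symbol alone.

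Markers of cells that make secretoglobins elsewhere were set beside these values. Of 32 club and urethral luminal cell markers, 9 rose, 2 fell and 21 did not pass, with a median of 0.14. The shares over all probe sets were 1.05% higher and 0.415% lower. The siderophore-binding protein gene Lcn2 (4.15 ± 0.17, adjusted p = 1.7e-05), the matrix protein gene Chad (1.86 ± 0.07, adjusted p = 1.1e-05) and the keratin gene Krt7 (1.06 ± 0.09, adjusted p = 9.2e-04) rose, and the immunoglobulin transporter gene Pigr fell (−1.79 ± 0.10, adjusted p = 9.8e-05; log2 difference ± SE, limma). The mean log2 level of this list was 8.29, 8.24 and 8.21 on the transgenic arrays, above 7.89, 7.95 and 7.99 on the wild-type arrays. The list was written with earlier results of these data known, so its counts and level are a description. In this list 6 markers, Bpifa1, Bpifb1, Muc4, Muc5b, Krt13 and Reg3g, were below background on all 6 arrays, as was Scgb1a1. The club cell genes Cyp2f2, Cbr2 and Cldn10, named after their values were seen, were above it on all 6. Cyp2f2 averaged 1071 ± 136 in transgenic and 1622 ± 168 in wild-type prostates, Cbr2 1265 ± 147 in transgenic and 3127 ± 308 in wild-type prostates, and Cldn10 1597 ± 43.4 in transgenic and 630.2 ± 103 in wild-type prostates (SD, n = 3 each). Cbr2 fell and Cldn10 rose past the threshold, and Cyp2f2 did not pass it (adjusted p = 0.0011, 0.0013 and 0.076, limma). The part of these markers in the secretoglobin differences was not tested.

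Lacrimal and salivary glands are the tissues in which mouse androgen-binding proteins are best known. Of 37 genes listed for them 21 were measured, and most of the listed Esp genes were not. Of the 21, 2 rose, 2 fell and 17 did not pass, with a median of −0.03. The amylase gene Amy1 rose by 3.74 ± 0.10 (adjusted p = 8.7e-07) and the submaxillary gland gene Smr2 by 2.33 ± 0.14 (adjusted p = 1.2e-04), while Csta1, described above, and the secretory cell factor gene Bhlha15 (−0.48 ± 0.07, adjusted p = 0.020) fell (log2 difference ± SE, limma). Smr2 averaged 148.4 ± 7.17 in transgenic and 17.1 ± 6.19 in wild-type prostates (SD, n = 3 each), at least 1.90-fold higher. Only 6 of the 21 were above background on all transgenic arrays and 5 on all wild-type arrays, and 13 were below it on all 6, among them Prol1, Smr3a, Bpifa2, Pip, Car6, Dcpp2 and Lcn11. The list's mean log2 level was 6.27, 6.22 and 6.23 in transgenic and 5.995, 6.10 and 6.21 in wild-type prostates. Bhlha15 did not pass when wild-type replicate 2 (−0.45) or transgenic replicate 1 (−0.46), 2 (−0.49) or 3 (−0.48) was left out.

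Of 25 genes listed as prostate secretory products, 3 rose, 8 fell and 14 did not pass, with a median of −0.04. The lists were drawn up from general knowledge, and the organ that gave each signal was not tested. Ceacam10 (4.03) and the protease inhibitor gene Spink11 (4.17) rose. The retinoid-binding protein gene Crabp1 (−1.76) and the stress response gene Nupr1 (−1.22) fell. These 4 had the smallest p-values of the list (adjusted p of 7.4e-07 to 2.2e-04, limma) and were not picked as secreted proteins. The list is broader than its name and also holds the transcription factor gene Hoxb13. The wild-type values of Ceacam10 and Spink11 were below background, which makes them at least 11.9-fold and 11.6-fold higher in transgenic prostates. Of 12 seminal vesicle genes 2 were lower past the threshold, Svs3a (−1.43, adjusted p = 0.019) and Slc2a12 (−0.54, adjusted p = 0.038), and 0 higher (limma). The list's median was −0.04. Pate4 (3.88 ± 1.09), Svs5 (1.67 ± 1.83) and Svs4 (1.45 ± 1.33) were higher but did not pass (log2 difference ± SE, adjusted p of 0.201 to 0.772, limma). Svs2 (−0.35 ± 1.55), Svs6 (−0.29 ± 0.17), Svs3b (−0.15 ± 0.17) and Svs1 (−0.08 ± 0.14) were lower and did not pass either (adjusted p of 0.536 to 0.954, limma). The remaining genes of the list, Sva (0.07), Pate9 (0.06) and Aoc1 (0.01), did not pass. Pate4 had intensities of 1782, 1203 and 3026.5 in transgenic prostates, against 941.9, 25.25 and 36.73 in wild-type prostates. With single arrays left out, Svs3a did not pass without the array of wild-type replicate 2 (−1.41) or those of transgenic replicates 1 (−1.31) and 3 (−1.39). Slc2a12 then passed only without wild-type replicate 1, and its other values ran from −0.59 to −0.49. Of 19 vas deferens and epididymis genes 2 were higher, Adam7 (2.41, at least 2.04-fold) and Wfdc8 (0.82, at least 1.05-fold). Both were below background in wild-type prostates, and Wfdc8 was above it on only 2 transgenic arrays. Of the 19, 13 were below background on all arrays. Only 3 were above it on all transgenic arrays and 3 on all wild-type arrays. The list's mean log2 level was 6.56, 6.57 and 6.48 in transgenic and 6.24, 6.404 and 6.48 in wild-type prostates.

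Markers of the surrounding tissue had median log2 differences of −0.02 for urothelium, 0.04 for muscle, 0.15 for luminal epithelium and 0.26 for macrophages. Of 11 luminal epithelial markers the peptidase gene Dpp4 alone rose (0.65, adjusted p = 0.019, limma), and its call was lost without any array but wild-type replicate 1 (0.59 to 0.68). By limma, 0 of 12 urothelium, 0 of 13 muscle and 0 of 10 macrophage markers passed the threshold, and 3 of each list had an unadjusted p under 0.05. The smallest p-values were those of Upk1a (−0.68, adjusted p = 0.083), Myh4 (−0.29, adjusted p = 0.196) and C1qb (0.73, adjusted p = 0.17). Without wild-type replicate 1 Upk1a (−0.82) and C1qb (0.96) passed. The macrophage list lay at a mean log2 level of 6.90, 6.95 and 7.05 in transgenic and 6.81, 6.59 and 6.59 in wild-type prostates, and its part in the secretoglobin differences was not tested.

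**Figure D4:**
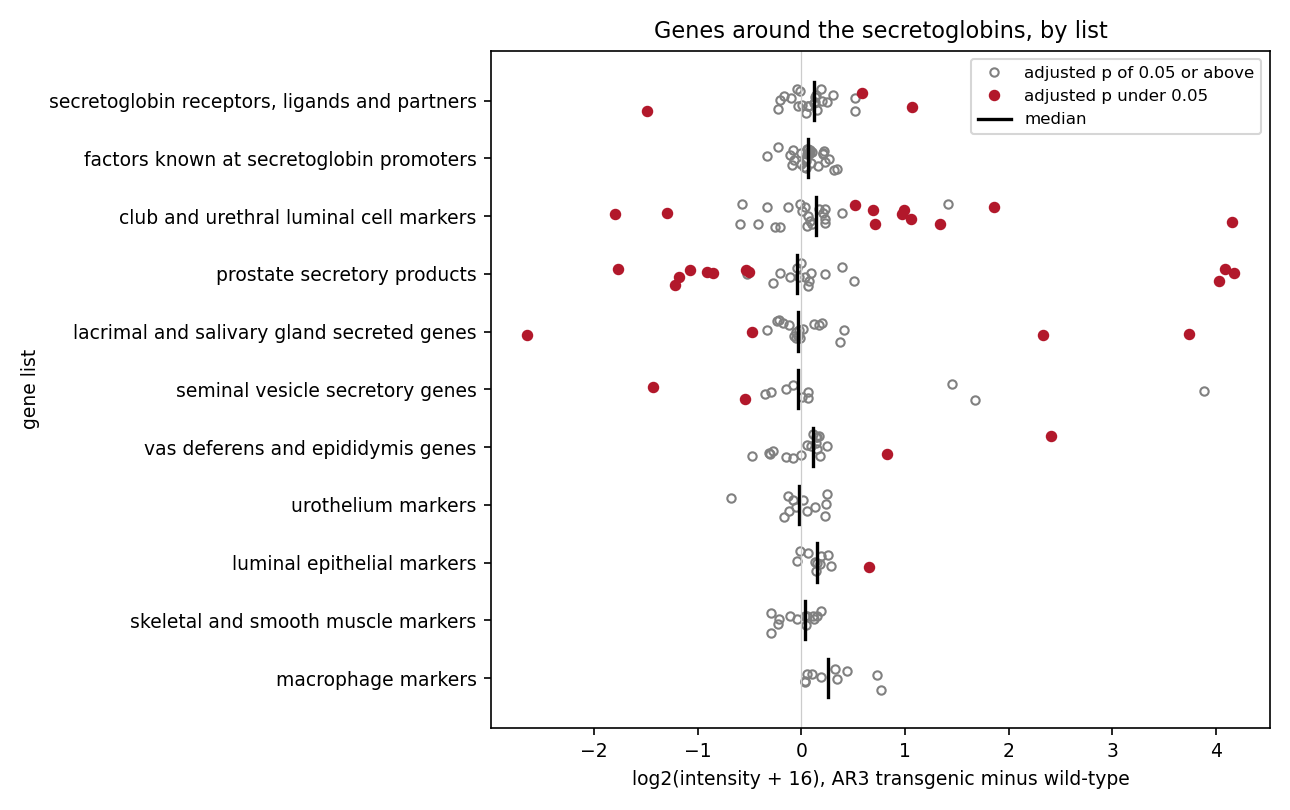
Log2 difference of each measured gene of 11 lists, AR3 transgenic minus wild-type on the log2(intensity + 16) scale, with filled points for genes past an adjusted p of 0.05 (limma), open points for the others and a bar at each list's median. The factors known at secretoglobin promoters show 0 filled points of 29, while club, prostate and gland lists show filled points on both sides of 0.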

How the data were processed

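Total RNA from dissected prostates was column-purified, treated with DNase, fragmented and biotinylated for Affymetrix whole-transcript arrays, per the labels' protocols. The deposited table holds 1 intensity per probe set and array on a linear scale, as read from its values, and how the authors summarised and normalized it is not stated there. Of 35512 probe sets, 6568 with identifiers below the gene-level range were taken for controls and left out. Of the 28944 tested, 21789 carry 1 gene symbol, 1621 several and 5534 none in the platform annotation given with the data. The gene IDs of 19856 genes matched RefSeq (GRCm38.p6), which gave current names, gene order and promoters.

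The deposited intensities were transformed as log2(intensity + 16), which understates changes of dim genes, and compared between 3 transgenic and 3 wild-type arrays with limma 3.58.1 (lmFit, eBayes, R 4.3.3), two-sided and without covariates. The threshold was a Benjamini-Hochberg adjusted p of 0.05 over all probe sets tested. The labels name each sample as a separate mouse, so p-values measure the spread between mice, and the number of arrays limits the precision. Exact permutation of 3 against 3 cannot go below 0.1, so none was used. A lower bound on a fold sets the brighter genotype's mean against the background scale, or a probe set's own value where that is higher, on each array of the dimmer genotype. Promoters were aligned locally with Biopython 1.88 (match 1, mismatch −1, gap opening −3, extension −0.5). The limma steps were tested on simulated data.

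The 6 genes, the gene lists and the tests were chosen with earlier results of these data known. Named genes were the 6, other secretoglobins with a probe set, up to 4 called genes per list with the smallest p (or the 1 with the smallest p), nearest measured neighbours, the 3 most similar genes for any member spanning more than 2 log2 units, and Nkx2-1. Below-background list members and the seminal vesicle genes that did not pass were named after their values were seen. Alternatives were array weights, constants of 1 and 64, the mean of a gene's probe sets, a filter on the dimmest 40%, median centring, quantile normalization, robust variances with an intensity trend, a block for the mouse number, and each array left out. The mouse numbers name separate mice and were not taken as pairs. Scan dates were not used.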

Additional observations from a re-analysis of the deposited data

How the results depend on the processing

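Of 702 recomputed values of 51 results, 0 turned the direction of a call. Differences of 11 results, all between −0.10 and 0.09 and none past the threshold, changed sign in some settings, Scgb3a1, Scgb3a2, Scgb2b2 and the probe set of Scgb2b27 and Scgb2b26 among them. Over all probe sets 425 passed the threshold, against 678 with robust variances and an intensity trend, 1202 with array weights, 250 with mouse numbers entered as a replicate block, and 234 to 519 without single arrays (254 without wild-type replicate 2, 248 and 234 without transgenic replicates 2 and 3). Median centring gave 314 higher and 264 lower, against 305 and 120. With constants of 1 and 64 the log2 difference of Scgb2b27 was −6.07 and −4.60, and that of Scgb2b24 −1.37 and −0.72. The mean of both probe sets gave −1.31 for Scgb1b27. Of the 6 genes, 3 passed the threshold, against 1 to 3 without single arrays, with 1, Scgb2b27, without transgenic replicate 2, and 2 with the replicate block, where Scgb1b27 was lost. The block also ended the calls on Spink1, Pla2g4a, Bhlha15, Dpp4 and Slc2a12 (adjusted p of 0.0859 to 0.123). Same-numbered mice did not deviate together (correlations of −0.04, 0.05 and −0.16). Slc2a12 was also lost with a constant of 1 (adjusted p = 0.0706). Upk1a passed with a constant of 64, median centring, the intensity trend and array weights, and C1qb with array weights. The causes were not tested. Levels below the background scale have only bounds here.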
